A study of Homo sapiens with 6 samples.

Results

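Transcripts of 9 genes of MHC class I antigen presentation were described in AsPC-1 cells with and without forced expression of MMP28. The genes were chosen by name (HLA-B, HLA-C, HLA-E, HLA-F, B2M, TAP1, TAP2, TAPBP and NLRC5), and all 9 were found among the 58735 genes of the count table. AsPC-1 is a long-established human cell line from pancreatic cancer. MMP28 belongs to the matrix metalloproteinases and is secreted. RNA was sequenced from cells of wild-type genotype that had received an empty virus (Vector, n = 3) and from cells that had received a lentivirus for MMP28 overexpression (OE-MMP28, n = 3). The study's methods describe stable lines made with a GFP-Puro lentivirus and selected with puromycin, so both groups carried a viral insertion and had been through selection. Whether each line was a pool or a single clone, which promoter drove MMP28, and whether replicates were separate cultures were not given in the sources used here. The p-values therefore measure the spread between these libraries, which may be technical. Where the values of single libraries are listed for a group, they stand in the order of replicates 1, 2 and 3.

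MHC class I molecules display short peptides from inside the cell to CD8+ T cells. Each consists of a heavy chain, encoded by an HLA gene, and the invariant light chain β2-microglobulin, encoded by B2M. Peptides are cut by the proteasome, carried into the endoplasmic reticulum by the TAP1-TAP2 transporter, and loaded onto the heavy chain with the help of tapasin (TAPBP). NLRC5 is a transactivator that acts on the promoters of these genes, and interferon gamma is a classical inducer of the pathway. Reduced class I display is a known feature of many carcinomas, pancreatic cancer included.

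Library totals ranged from 13633249 to 16691458 counts, and each OE-MMP28 library had a larger total than any Vector library. The share of mitochondrial counts was 11.9% to 14.8% in the Vector group and 8.8% to 11.9% in the OE-MMP28 group. With mitochondrial genes left out of the counts, HLA-B had a log2 fold change of 1.23 (edgeR adjusted p = 0.00282) and stayed the only one of the 9 genes called. MMP28 itself was at 5.17, 9.11 and 8.43 FPKM (fragments scaled to gene length and library total) in the Vector libraries, and at 13.1, 13.9 and 15.1 FPKM in the OE-MMP28 libraries. Its log2 fold change was 0.90 (SE 0.193, edgeR adjusted p = 0.00226), and reads from the inserted and the native copy cannot be told apart. All 7 markers of a pancreatic ductal cancer cell were detected, with KRT7 low and the other 6 abundant. Among 9 leukocyte markers, CD3E, CD2, MS4A1 and TYROBP were at 0 in every library, and the summed level of the list was 1.11 to 1.21 FPKM in the Vector group and 0.715 to 1.09 FPKM in the OE-MMP28 group. The 6 fibroblast markers summed to 33.9 to 40.9 FPKM in the Vector group and 39.3 to 57 FPKM in the OE-MMP28 group, nearly all of it LUM, with COL1A2 at most at 1 count. The 3 endothelial markers summed to at most 0.293 FPKM in any library, and among them PECAM1 rose from 0, 4 and 4 counts to 13, 21 and 30 counts (log2 fold change 2.79, edgeR adjusted p = 0.00361) while CDH5 stayed at 0 or 1 count. In bulk RNA, fewer cells that express a gene and less RNA of it in each cell cannot be told apart.

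Of the 9 genes, 7 lie in the MHC region of chromosome 6. On build GRCh38 with the GENCODE 29 annotation, HLA-F is at chr6:29722775-29738528 and HLA-E at chr6:30489467-30494205, both on the plus strand. HLA-C lies at chr6:31268749-31272130, TAP2 at chr6:32821833-32838780, TAP1 at chr6:32845209-32853978 and TAPBP at chr6:33299694-33314387, all on the minus strand. The annotated span of HLA-B, chr6:31269491-31357188 on the minus strand, is long because it reaches into HLA-C, with which it shares 35 exonic bases. B2M lies at chr15:44711487-44718877 and NLRC5 at chr16:56989485-57083531, both on the plus strand.

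The genes differ in how cleanly reads can be assigned to them. Stretches of 50 bases that also occur in transcripts of another gene made up 17.8% of HLA-B, mostly within the antisense gene AL671883.2, and 5.7% of HLA-C. HLA-B and HLA-C shared 2.48% of the HLA-B stretches with each other at this length, and none at 100 bases. For TAP2 the share was 31.3%, in the same-strand gene AL669918.1, and for HLA-F it was 21.6%. No stretch of B2M or NLRC5 was shared. AL671883.2 was listed at a count of 0 in all 6 libraries, and AL669918.1 at 5 counts in Vector replicate 1 and 0 elsewhere. The counts refer to reference gene models, and the HLA alleles that AsPC-1 carries were not analysed here, so levels of the HLA genes are less certain than those of B2M or NLRC5.

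Class I promoters are known for a conserved module with a CRE-like element and a CCAAT box, and for upstream NF-κB and interferon-response elements. The reference sequences of the 250 bases before the start of HLA-B, HLA-C, HLA-F and B2M are shown because HLA-B and HLA-C are close copies, and because HLA-B and B2M were the members whose groups did not overlap. They are taken from RefSeq on GRCh38.p14 and written 5′ to 3′ on the strand of the gene. HLA-B (minus strand) covers chr6:31357180-31357429, HLA-C (minus strand) chr6:31272093-31272342, HLA-F (plus strand) chr6:29723184-29723433 and B2M (plus strand) chr15:44711267-44711516. Capitals mark matches to the motifs named in the next paragraph.
HLA-B: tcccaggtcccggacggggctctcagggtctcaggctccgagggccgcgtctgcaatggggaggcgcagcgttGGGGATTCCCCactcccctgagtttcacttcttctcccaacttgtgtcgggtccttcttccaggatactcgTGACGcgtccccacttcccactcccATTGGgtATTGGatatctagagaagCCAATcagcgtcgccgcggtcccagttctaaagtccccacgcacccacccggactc
HLA-C: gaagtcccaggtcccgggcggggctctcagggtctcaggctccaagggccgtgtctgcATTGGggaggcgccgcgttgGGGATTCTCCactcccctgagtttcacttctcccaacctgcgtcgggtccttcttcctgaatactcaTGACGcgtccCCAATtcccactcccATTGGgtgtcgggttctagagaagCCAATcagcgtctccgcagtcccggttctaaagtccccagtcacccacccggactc
HLA-F: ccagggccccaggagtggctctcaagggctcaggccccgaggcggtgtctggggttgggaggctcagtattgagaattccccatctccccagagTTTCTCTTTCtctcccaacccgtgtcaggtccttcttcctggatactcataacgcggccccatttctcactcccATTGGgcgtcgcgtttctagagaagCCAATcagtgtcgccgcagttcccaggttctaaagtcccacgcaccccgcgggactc
B2M: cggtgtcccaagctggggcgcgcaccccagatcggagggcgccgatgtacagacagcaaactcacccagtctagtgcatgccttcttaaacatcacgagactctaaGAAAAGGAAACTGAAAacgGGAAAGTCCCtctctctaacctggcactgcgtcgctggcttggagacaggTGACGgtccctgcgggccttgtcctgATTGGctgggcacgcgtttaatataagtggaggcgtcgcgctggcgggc

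Motifs were searched on both strands as CCAAT (the box of that name), TGACG (the core of a cAMP-response element), the interferon-stimulated response element (ISRE, a repeat of GAAA with any 2 bases between), the STAT site (TTCNNNGAA) and the NF-κB consensus. HLA-B and HLA-C were identical at 91.9% of 246 aligned promoter bases, and HLA-B and HLA-F at 83.7%. HLA-B held 3 matches to CCAAT and 1 to TGACG, HLA-C held 4 and 1, and both held the NF-κB consensus, where the 3 matches of HLA-B overlap each other. HLA-F held 2 matches to CCAAT and 1 to the ISRE, and lacked the letters TGACG and the NF-κB consensus in this window. B2M held 1 match to CCAAT, 1 to TGACG, 2 overlapping matches to the ISRE and 1 to the NF-κB consensus. The ISRE was also present before TAP1, TAP2 and TAPBP. Over 35116 promoter windows of the same length, CCAAT was present in 32%, TGACG in 21.2%, the ISRE in 3.02%, the STAT site in 6.57% and the NF-κB consensus in 6.88%. The ISRE was searched only as the exact repeat named above, which HLA-B and HLA-C lacked in this window. Looser forms of the element were not searched, so the lack of a match does not show that it is absent. A match is a description of the letters and not evidence of binding. HLA-E and NLRC5 had no entry.

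Per length, the light chain was the most abundant transcript of the set and the transactivator the least. In the Vector group the mean was 114 FPKM for B2M, 51.4 for HLA-E and 22.5 for TAPBP, and the ranges of these 3 genes did not overlap. TAP1, HLA-C, TAP2 and HLA-B followed at 3.89, 2.95, 2.52 and 2.19 FPKM, and each overlapped its neighbour in this order. HLA-F at 0.77 FPKM and NLRC5 at 0.601 FPKM also overlapped. In the OE-MMP28 group the order was the same for the top 3, while the mean of HLA-B, 5.2 FPKM, came next, and it overlapped HLA-C at 4.72 FPKM, which in turn overlapped TAP1 at 4.37 FPKM. TAP2, HLA-F and NLRC5 came last without overlap, at 3.13, 1.15 and 0.614 FPKM. Among the 15319 genes tested, ranked by mean FPKM over all 6 libraries, B2M stood at place 216 and HLA-E at 710, whereas HLA-C and HLA-B stood at 8174 and 8300. AsPC-1 cells thus carried much more transcript of HLA-E, a nonclassical heavy chain recognised by NKG2 receptors, than of HLA-B or HLA-C, classical heavy chains that present diverse peptides to T cells.

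Of the 9 genes, only HLA-B passed an adjusted p of 0.05. It was higher in OE-MMP28 cells, by 2.39-fold (95% interval 1.62 to 3.54). No gene passed in the lower direction. That is 11.1% of the 9 genes called higher, against 11.7% of all 15319 genes tested, and 0 called lower against 11.6%. In either direction 23.4% of all genes tested were called. The median log2 fold change was 0.33 for the 9 genes and 0.01 for all genes tested, and 8 of the 9 values were positive, with those of TAPBP and NLRC5 turning negative under upper-quartile scaling. All 9 genes had at least 10 counts in every library, so none was tested through one group alone.

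**Figure D1:**
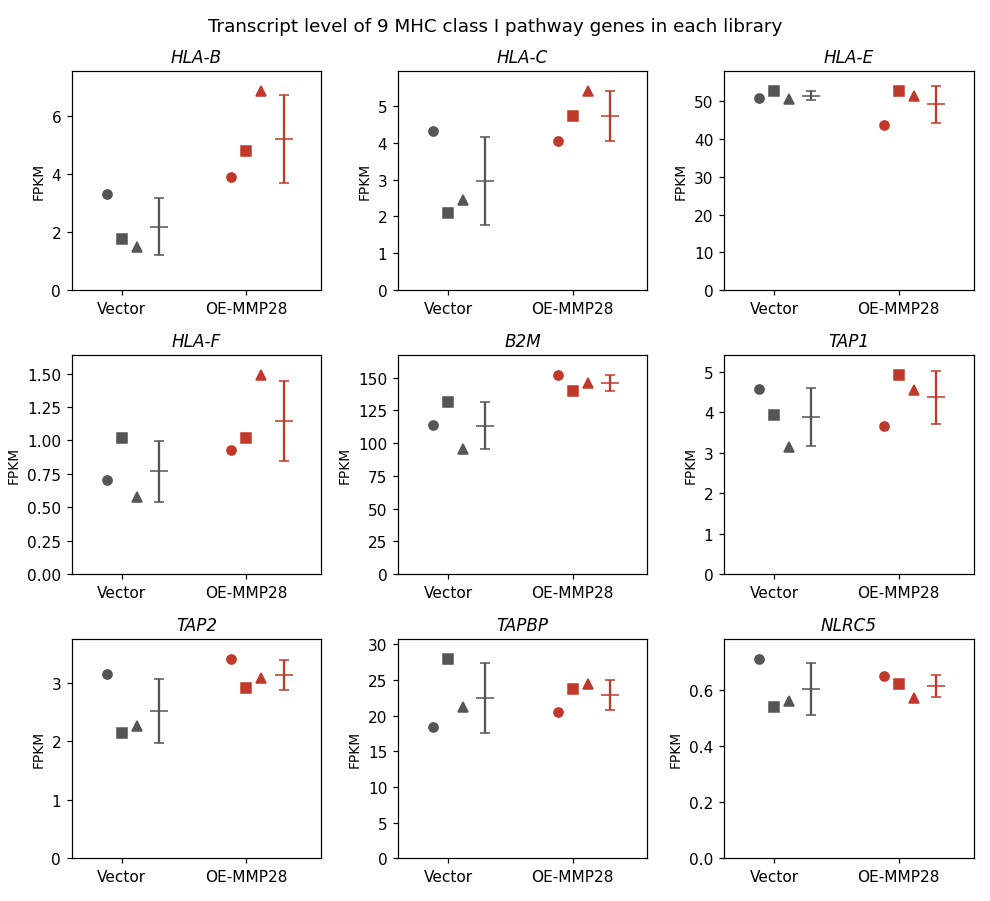
FPKM of each gene (vertical axis, from 0, a separate scale per gene) in the 3 Vector (grey) and 3 OE-MMP28 (red) libraries; circles, squares and triangles are replicates 1, 2 and 3, and bars give the mean and SD. For HLA-B and B2M all OE-MMP28 points lie above all Vector points, while HLA-E, TAPBP and NLRC5 overlap throughout.

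HLA-B was at 3.32, 1.75 and 1.49 FPKM in the Vector libraries, and at 3.92, 4.8 and 6.88 FPKM in the OE-MMP28 libraries. Vector replicate 1 was the highest of its group, and the groups did not overlap. The means were 2.19 ± 0.993 and 5.2 ± 1.52 FPKM (SD, n = 3 each), the log2 fold change was 1.26 (SE 0.272), and the edgeR adjusted p was 0.00233. These values rest on 67 to 155 counts per Vector library and 189 to 353 per OE-MMP28 library. The two-sided exact permutation test of the FPKM values gave p = 0.1, the smallest that 3 libraries against 3 allow. Leaving out any single library kept the log2 fold change between 1.00 and 1.70, with an edgeR adjusted p of at most 0.0319.

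HLA-C, the neighbouring classical heavy chain, was at 4.33, 2.1 and 2.44 FPKM in the Vector libraries and at 4.04, 4.73 and 5.41 FPKM in the OE-MMP28 libraries. As with HLA-B, Vector replicate 1 stood highest in its group, and here it lay above OE-MMP28 replicate 1, so the groups overlapped. The HLA-C values rest on 71 to 166 counts per Vector library and 160 to 228 per OE-MMP28 library. The log2 fold change of 0.69 (SE 0.249, 95% interval 0.17 to 1.20) fell short of the threshold (edgeR adjusted p = 0.0507). Without Vector replicate 1 it was 1.07, with an edgeR adjusted p of 0.00179. With the counts of HLA-B and HLA-C added together, a setting chosen after seeing the data, the log2 fold change was 0.99 (SE 0.24, edgeR adjusted p = 0.00542).

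HLA-E did not follow HLA-B. It was at 50.8, 52.8 and 50.7 FPKM in the Vector libraries and at 43.7, 52.8 and 51.3 FPKM in the OE-MMP28 libraries. On the log2 scale the difference was -0.05 (SE 0.145, edgeR adjusted p = 0.846), and the 95% interval on the linear scale ran from 0.784-fold to 1.19-fold. HLA-F, a nonclassical heavy chain, was scarce, at 0.708, 1.02 and 0.578 FPKM in the Vector libraries and at 0.932, 1.02 and 1.49 FPKM in the OE-MMP28 libraries. The groups overlapped, and the log2 fold change of 0.59 (SE 0.292) had a 95% interval of -0.01 to 1.20 and an edgeR adjusted p of 0.149. Between 37 and 109 counts stood behind each HLA-F value.

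HLA-G, another nonclassical heavy chain and not one of the 9 genes, was at 0 counts in all 6 libraries, which allows up to 0.18 to 0.22 CPM (counts scaled to the library total), depending on the library.

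B2M was at 114, 131 and 95.2 FPKM in the Vector libraries and at 152, 140 and 146 FPKM in the OE-MMP28 libraries. Its groups did not overlap, a separation seen for 2 of the 9 genes and for 38.1% of all genes tested in either direction. The means were 114 ± 17.9 and 146 ± 6.15 FPKM (SD, n = 3 each), and the log2 fold change was 0.38 (SE 0.147, edgeR adjusted p = 0.0704). Without Vector replicate 2, the highest of its group, the log2 fold change was 0.49 and the edgeR adjusted p 0.023.

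The transporter and loading genes gave no call. TAP1 was at 4.57, 3.94 and 3.15 FPKM in the Vector libraries and at 3.65, 4.92 and 4.54 FPKM in the OE-MMP28 libraries (log2 fold change 0.18, SE 0.19, edgeR adjusted p = 0.529). TAP2, the other subunit of the transporter, was at 3.14, 2.14 and 2.26 FPKM against 3.4, 2.91 and 3.08 FPKM in the same order (0.32, SE 0.187, edgeR adjusted p = 0.222). In both genes the groups overlapped, and the 95% intervals reached from -0.21 to 0.58 for TAP1 and from -0.07 to 0.71 for TAP2. TAPBP ranged from 18.4 to 27.9 FPKM in the Vector group and from 20.5 to 24.4 FPKM in the OE-MMP28 group (0.04, SE 0.165, edgeR adjusted p = 0.906), and its sign turned under several of the alternatives. Doublings of TAP1, TAP2 or TAPBP lie outside these intervals, whose upper bounds on the log2 scale were 0.58, 0.71 and 0.38.

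NLRC5 was at 0.708, 0.538 and 0.559 FPKM in the Vector libraries and at 0.648, 0.621 and 0.571 FPKM in the OE-MMP28 libraries. The values of OE-MMP28 cells all lay within the Vector range. The log2 fold change was 0.04 (SE 0.217, 95% interval -0.41 to 0.49, edgeR adjusted p = 0.925), from 90 to 134 counts per library. Its sign turned when single libraries were left out and under upper-quartile scaling.

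Ratios within a library do not depend on how libraries are scaled to each other. HLA-B over HLA-C was 0.767, 0.833 and 0.612 in the Vector libraries and 0.971, 1.01 and 1.27 in the OE-MMP28 libraries. These groups did not overlap, and Vector replicate 1 was not apart from its group in this ratio. HLA-E over the sum of HLA-B and HLA-C was 6.63, 13.8 and 12.9 against 5.5, 5.55 and 4.18 in the same order, again without overlap, although Vector replicate 1 came close to the OE-MMP28 values. Each of the pair had p = 0.1 by the two-sided exact permutation test, the smallest possible, and 0.3 after Benjamini-Hochberg adjustment over the 6 ratios computed. B2M over the 4 heavy chains of the set was 1.98 ± 0.276 in the Vector group and 2.45 ± 0.386 in the OE-MMP28 group (SD, n = 3 each, exact permutation p = 0.3, adjusted 0.6). The ratios TAP1 over TAP2, TAPBP over both TAP genes, and HLA-F over HLA-B plus HLA-C overlapped between groups (exact permutation p of 0.5 to 0.6, n = 3 each).

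Within the summed FPKM of HLA-B, HLA-C, HLA-E and HLA-F, HLA-B took 3.78% ± 1.6 in the Vector group and 8.53% ± 1.77 in the OE-MMP28 group. HLA-E took 89.8% ± 3.38 and 81.8% ± 2.54, so it stayed the main heavy chain of the 4 in both. HLA-C took 5.12% ± 1.95 and 7.81% ± 0.438 (SD, n = 3 each).

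**Figure D2:**
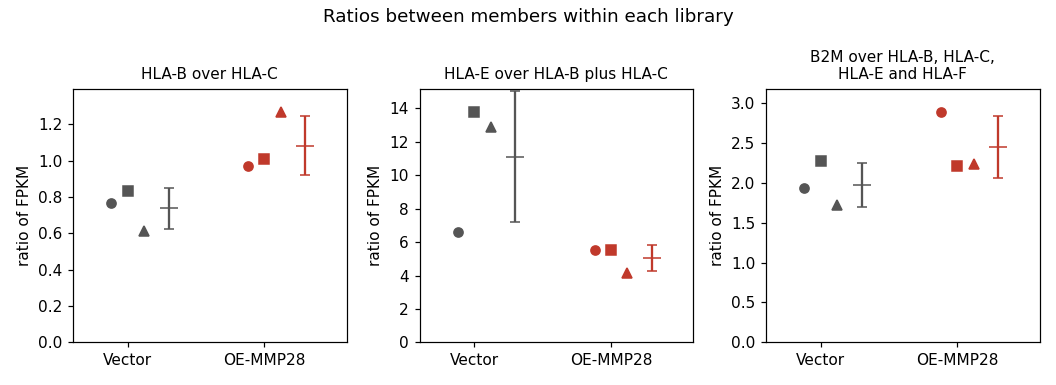
FPKM ratios within each library (vertical axes, no unit, from 0) for 3 pairs of members, in Vector (grey) and OE-MMP28 (red) replicates 1 (circle), 2 (square) and 3 (triangle), with mean and SD. HLA-B over HLA-C was at most 0.833 in Vector and at least 0.971 in OE-MMP28 libraries, while B2M over the 4 heavy chains overlapped.

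The other genes of the pathway were read from 10 lists of 94 genes, of which 76 could be tested. Of these, 14 were higher and 11 lower in OE-MMP28 cells at an edgeR adjusted p under 0.05, which is 18.4% and 14.5%, against 11.7% and 11.6% of all genes tested. Their median log2 fold change was 0.13. Without OE-MMP28 replicate 2 the counts were 9 higher and 6 lower, and without Vector replicate 3 the count of lower genes was 7.

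The proteasome gave the most calls in the higher direction. The immunoproteasome is a form with exchanged catalytic subunits that yields peptides suited to class I, and PA28 is its activator. Of 7 genes, 5 rose, none fell and 2 did not pass, with a median log2 fold change of 0.59. PSMB9, a catalytic subunit, was at 5.88, 3.66 and 4.11 FPKM in the Vector libraries and at 6.98, 9.61 and 8.96 FPKM in the OE-MMP28 libraries (log2 fold change 0.92, SE 0.202, edgeR adjusted p = 0.00277). Its groups did not overlap. PSMB8, another catalytic subunit, had a log2 fold change of 0.59 (edgeR adjusted p = 0.0124), and the assembly factor POMP had 0.67 (edgeR adjusted p = 0.00501). The PA28 genes PSME1 and PSME2 had 0.50 and 0.87 (edgeR adjusted p = 0.0191 and 0.000351). PSMB10, the third catalytic subunit, was at 5.13 FPKM in the Vector group and 5.97 in the OE-MMP28 group (0.23, edgeR adjusted p = 0.478), and PSME3, a related activator gene, had 0.36 (edgeR adjusted p = 0.139). Without Vector replicate 3, and likewise without OE-MMP28 replicate 3, 3 of the 5 kept the call, PSMB8 and PSME1 being lost, and without OE-MMP28 replicate 2 PSMB8 was lost.

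Constitutive subunits were also among the calls. Of the 3 counterparts that the inducible subunits replace, PSMB5 and PSMB6 rose, with log2 fold changes of 0.82 and 0.69 (edgeR adjusted p = 0.00231 and 0.0131), while PSMB7 had 0.13 (edgeR adjusted p = 0.592). PSMB6 lost the call without Vector replicate 2, without OE-MMP28 replicate 2 and without OE-MMP28 replicate 3. PSMB8 lies between TAP2 and TAP1 in the MHC region, PSMB9 overlaps the span of TAP1 on the other strand, and 20.6% of the exonic length of PSMB8 overlaps PSMB8-AS1, which was at 17 to 37 counts per library and gave no call (edgeR adjusted p = 0.461).

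None of the 8 peptide loading and trimming genes passed. The chaperones CALR, CANX and PDIA3 and the tapasin relative TAPBPL had log2 fold changes between -0.11 and 0.26. The trimming peptidase ERAP2 was at 2.18, 2.32 and 2.3 FPKM in the Vector libraries and at 2.02, 1.32 and 1.62 FPKM in the OE-MMP28 libraries (-0.45, edgeR adjusted p = 0.0955). The median of the list was -0.11.

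**Figure D3:**
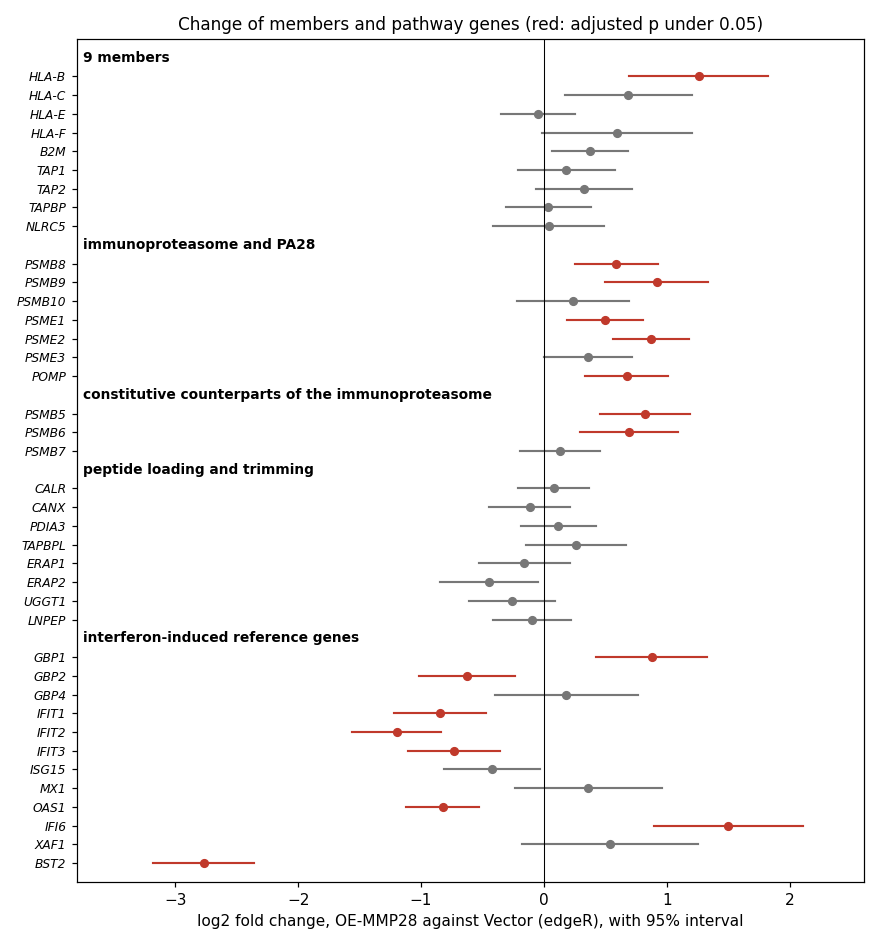
Log2 fold change of OE-MMP28 against Vector (horizontal axis) with its 95% interval from edgeR for the 9 members and 4 pathway lists; red marks an adjusted p under 0.05. HLA-B and 7 proteasome genes are red to the right of 0, no loading or trimming gene is red, and the interferon-induced genes are split, with BST2 farthest to the left at -2.77.

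Genes that control class I transcription showed few differences. Of 14 transcription factors, which included the RFX and NF-Y complexes, CREB and ATF factors, IRF1, IRF2, NF-κB and EZH2, none rose and CREB1 fell by 0.48 on the log2 scale (edgeR adjusted p = 0.0276), a call that was lost without Vector replicate 3, OE-MMP28 replicate 2 or OE-MMP28 replicate 3. IRF1, the interferon-induced activator of class I promoters, was at 3.33 FPKM in the Vector group and 3.43 in the OE-MMP28 group (0.06, edgeR adjusted p = 0.854). NFKB1 was at 6.31 and 8.28 FPKM, with groups that did not overlap (0.40, edgeR adjusted p = 0.0687). Of 8 interferon gamma signalling genes tested, STAT2 fell by 0.56 on the log2 scale (edgeR adjusted p = 0.0127) and none rose. STAT2 lost the call without OE-MMP28 replicate 2.

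Other interferon-induced genes, taken as a reference, did not move in one direction. Of 12, 2 rose and 6 fell, and the median log2 fold change was -0.53. IFI6 rose by 1.5 and GBP1 by 0.88 on the log2 scale (edgeR adjusted p = 0.00104 and 0.00641). BST2, which encodes the virus-tethering protein tetherin, was at 31.1, 28.6 and 30.3 FPKM in the Vector libraries and at 3.5, 4.28 and 5.26 FPKM in the OE-MMP28 libraries (-2.77, edgeR adjusted p = 9.52e-09). IFIT1, IFIT2, IFIT3, OAS1 and GBP2 fell by 0.63 to 1.20 on the log2 scale, and GBP2 lost the call when Vector replicate 2 or 3 or OE-MMP28 replicate 2 or 3 was left out.

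Ligands of the NK cell receptor NKG2D, which are class I-like molecules induced by cell stress, differed among themselves. ULBP1 rose by 1.38 on the log2 scale from a low level (0.24 to 0.627 FPKM, edgeR adjusted p = 0.0195), while MICA fell by 0.46 (17.5 to 12.6 FPKM, edgeR adjusted p = 0.043). MICB, ULBP2 and ULBP3 did not pass, and in all 1 of 10 genes tested in this list rose and 1 fell. Of 3 class I pseudogenes tested, HLA-K rose by 1.41 (0.78 to 2.08 FPKM, edgeR adjusted p = 0.0168). The call of ULBP1 was lost without Vector replicate 2, OE-MMP28 replicate 1 or OE-MMP28 replicate 2, that of MICA also without Vector replicate 3, and that of HLA-K without Vector replicate 2, OE-MMP28 replicate 2 or OE-MMP28 replicate 3 (edgeR adjusted p up to 0.0998 for ULBP1 and 0.0852 for HLA-K).

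Of 13 MHC class II genes, 5 could be tested. HLA-DMA, which helps to load class II molecules, was the most abundant at 3.85 FPKM in the Vector group and 3.41 in the OE-MMP28 group (log2 fold change -0.16, edgeR adjusted p = 0.626). CD74, the invariant chain, rose from 0.261 to 0.719 FPKM (log2 fold change 1.47, edgeR adjusted p = 0.0139). Without Vector replicate 3 or OE-MMP28 replicate 3 it was not called (edgeR adjusted p = 0.0712 and 0.107). HLA-DRA was at 0.3 and 0.815 FPKM (1.42, edgeR adjusted p = 0.0594), and CIITA, the class II transactivator, had 0.22 (edgeR adjusted p = 0.691). Among 7 genes known to control class I at the cell surface, the ubiquitin ligase gene MARCHF4 rose by 1.37 (0.671 to 1.74 FPKM, edgeR adjusted p = 0.00172) and its relative MARCHF9 fell by 0.66 (4.41 to 2.76 FPKM, edgeR adjusted p = 0.0283). SUSD6 rose by 0.51 and TMEM127, its partner in lowering surface class I, fell by 0.51 (edgeR adjusted p = 0.0239 and 0.0149). MARCHF4 and TMEM127 kept the call whichever library was left out, SUSD6 lost it without Vector replicate 1, Vector replicate 3 or OE-MMP28 replicate 2, and MARCHF9 without Vector replicate 2, Vector replicate 3, OE-MMP28 replicate 1 or OE-MMP28 replicate 2.

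To show whether a gene moved with its chromosomal surroundings, it was set beside the median log2 fold change of other tested genes within 5 Mb on either side. For the MHC region genes this median lay between 0.00 and 0.02, and for B2M it was 0.01. NLRC5 was the exception, with a median of -0.34 over 55 neighbours. With an offset for the local median, the log2 fold change of NLRC5 was 0.38 (edgeR adjusted p = 0.262) and that of HLA-B 1.26 (edgeR adjusted p = 0.00357).

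Several pathway calls lay where the neighbours moved too. PSME1 and PSME2 had a local median of 0.59 and PSMB5 of 0.60, and with the offset PSME1 had -0.09, PSME2 0.28 and PSMB5 0.22 (edgeR adjusted p = 0.721, 0.213 and 0.43). By contrast PSMB8 (0.59, edgeR adjusted p = 0.0178), PSMB9 (0.91, edgeR adjusted p = 0.00418) and POMP (0.66, edgeR adjusted p = 0.00836) kept the call with the offset. CREB1, TMEM127, SUSD6, IFIT1 and IFIT3 also lost it, with local medians of -0.47, -0.43, 0.46, -0.44 and -0.45. MICA lost it as well (-0.46, edgeR adjusted p = 0.0566), although its local median was 0.00. What moved these stretches was not tested.

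**Figure D4:**
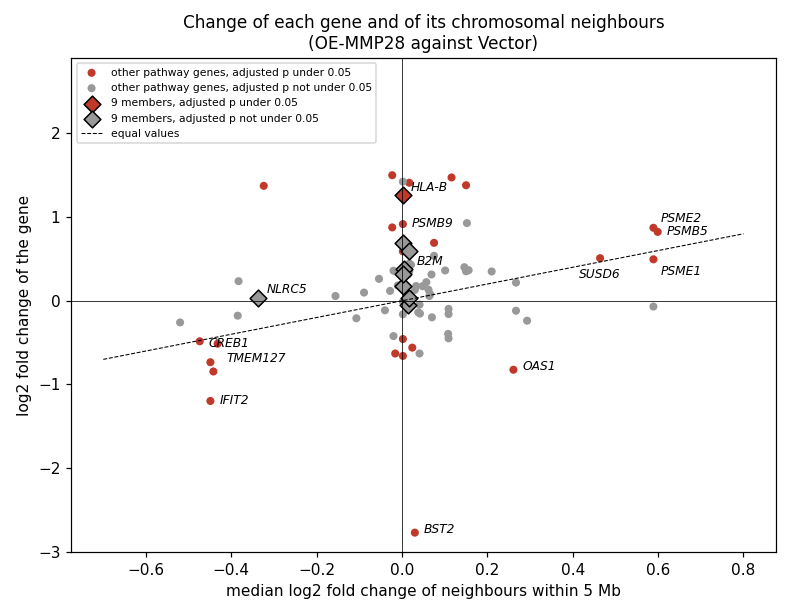
Log2 fold change of each tested pathway gene (vertical axis) against the median log2 fold change of its neighbours within 5 Mb (horizontal axis); diamonds are the 9 members, circles other pathway genes, red an edgeR adjusted p under 0.05, and the dashed line marks equal values. HLA-B stands at 1.26 with neighbours at 0.00, whereas PSME1, PSME2 and PSMB5 stand near or above a local median of about 0.59.

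The mean pattern of the 9 genes, each centred and scaled to unit SD on log2 CPM, was 0.05, -0.33 and -1.01 in the Vector libraries and -0.04, 0.59 and 0.73 in the OE-MMP28 libraries. Vector replicate 1 lay above OE-MMP28 replicate 1, so the groups overlapped in this mean. Of 12251 other genes that averaged 1 FPKM or more, the patterns most like it were those of DDRGK1, TRMT61A, AL391244.1, MYBBP1A and MYEOV, with Pearson r between 0.987 and 0.994 over the 6 libraries. Such values are the highest of many and are given as a description.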

How the data were processed

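RNA of AsPC-1 cells was sequenced in 6 libraries, 3 per group, and the labels gave both group and replicate number. Per the labels, the submitters' processing notes name HISAT2 2.0.5 and featureCounts 1.5.0-p3. The study's methods name limma in R. Genome build, strand setting and the handling of reads that match several places were not given in the sources used here. All 58735 gene identifiers and coordinates equalled those of GENCODE 29 on GRCh38, and 58708 symbols did (the remainder included symbols that a spreadsheet had turned into dates, which were restored from the identifiers).

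The authors deposited raw read counts per gene and FPKM values per library. Recomputed library totals behind the FPKM differed from the summed counts by -2.01% to 2.02%. The deposited table also held results of the authors' own comparison (group means as a signal, log2 fold change, raw p-value, adjusted p-value), none of which was used. All per-sample columns were mapped (0 unmapped), and no row lacked a gene.

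Counts were tested with edgeR 4.0.16 (quasi-likelihood, TMM scaling, group as the only term) in R 4.3.3. The filter was filterByExpr (min.count 10, min.total.count 15). Benjamini-Hochberg adjustment covered the 15319 genes that passed it, and a gene was called at an adjusted p under 0.05. SE values were taken from the log2 fold change and its F statistic. For FPKM ratios the test was an exact permutation of libraries, two-sided. Limits for a count of 0 were set at 3 counts per library and cover counting error only.

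The 9 genes, the gene lists and the tests were chosen with earlier results of these data known. Named were the 9 genes, MMP28, listed pathway genes, genes overlapping a member, and the 5 genes most like the members by Pearson r on log2 CPM (prior count of 2). No libraries were duplicates: chi-square per degree of freedom was 15.6 to 31.5 within groups. In simulated counts 200 genes were changed, of which 192 were among the 15043 tested. There the edgeR test recovered 23%, 77.3% and 96.9% of genes changed by 1.5-fold, 2-fold and 4-fold, and 5.88% of calls were false.

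The alternatives were leaving out each library, the replicate number as a block, DESeq2 size factors, upper-quartile scaling, DESeq2 1.42.0, limma voom (limma 3.58.1), other filters on counts, protein-coding genes only, counts without mitochondrial genes, an offset for the local median, and limma on log2(FPKM + 1) and log2(FPKM + 0.1) for genes averaging 0.5 FPKM or more, and the former without that filter. Summed counts of HLA-B and HLA-C were added after seeing the data. Not every listed gene is reported here.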

Additional observations from a re-analysis of the deposited data

How the results depend on the processing

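Over 19 alternatives HLA-B kept its direction in all and its call in 18, with log2 fold changes from 0.98 to 1.70 (adjusted p 1.07e-06 to 0.129, edgeR, DESeq2 or limma). The exception was limma on log2(FPKM + 1) without a filter on low values, which understates low genes and tested 30568 genes. In that setting 0 of the 9 members were called higher, all genes gave 362 higher and 308 lower calls, other pathway genes 1 higher and 3 lower, and MMP28 had 0.84 (limma adjusted p = 0.0903). HLA-C was called beside HLA-B, making 2 members, with the replicate number as a block, with limma voom, without a filter on low counts and without Vector replicate 1. B2M was the second called without Vector replicate 2. The range when single libraries were left out was 1 to 2 members, 985 to 1916 genes higher and 1044 to 1949 lower, and 9 to 15 other pathway genes higher and 6 to 12 lower.

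Same-numbered libraries did not deviate together (r = 0.017, 0.008 and -0.088), and no library correlated best with its own number. The replicate block gave HLA-C 0.74 (edgeR adjusted p = 0.0161) and 3685 calls in all against 3579. Filtered limma called 1009 genes higher and 965 lower with a pseudocount of 1, and 1000 and 970 with 0.1, where lower pathway genes numbered 7. The local offset called 1141 genes higher and 7 pathway genes lower. The cause of these differences was not tested.

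Signs turned for values near 0. Upper-quartile scaling gave TAPBP -0.013 and NLRC5 -0.009, and the local offset gave PSME1 -0.094. Leaving out single libraries gave -0.117 to 0.020 for HLA-E, -0.089 to 0.218 for TAPBP, -0.037 to 0.172 for NLRC5, and -0.303 to 0.026 for the log2 difference of TAP1 over TAP2. With 3 libraries a group, the simulated test recovered few 1.5-fold changes. It changed only 200 genes, whereas 23.4% of genes tested were called in the data. The adjustment was therefore stricter there, and its recovery is not that of the real test. PSME1, at 1.41-fold, was called (edgeR adjusted p = 0.0191), while B2M at 1.3-fold and TAP2 at 1.25-fold were not. The lack of a call for B2M or TAP2 does not show that they were unchanged. HLA-F, HLA-B and NLRC5 rest on few counts.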
